A study of Mus musculus with 8 samples.

Results

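Of the 20558 small RNAs counted in mouse testis, 21 were mitochondrial tRNAs, the tRNAs that the mitochondrial genome itself encodes. They were taken as all entries of the class Mt_tRNA, named from the Ensembl transcript of each entry, and grouped by the strand of the mitochondrial genome that carries the gene. The plus strand, which is the strand of the reference sequence, carried 13 of them and the minus strand 8. The mouse annotation lists 22 such genes, 14 on the plus strand and 8 on the minus strand, and mt-Td, the plus-strand tRNA for aspartate, was not analysed here.

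Small RNA was sequenced from whole testes of adult C57Bl/6 males, 4 on a standard diet (SD, control in the labels, mice M1N, M2N, TN1 and TN2) and 4 on a Western-like diet rich in sugar and butterfat (WD, experimental in the labels, mice M1W, M2W, M3W and M5W). The labels name no transgene or engineered allele. The labels describe a lipid-rich diet begun at 4 weeks of age and mating at 4 months for all 8 mice, the controls included. The study starts the diet after weaning, at a younger age than the labels give, and only in the WD group. Each library was made from a separate mouse, and the total count per mouse was between 2064562 and 3253798. The counts compare RNA from a whole organ that mixes germ cells and somatic cells, so fewer cells of a type and less RNA per cell cannot be told apart. All 6 germ cell miRNAs chosen as markers were listed, with a summed level of 9551 to 13430 CPM (counts relative to the scaled size of the library, in the usual unit) in SD mice and 9275 to 13350 CPM in WD mice.

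Mitochondrial DNA is copied into RNA from both strands as long transcripts that hold several genes. In these transcripts tRNAs sit between most of the mRNAs and rRNAs, and the enzymes that cut out the tRNAs thereby release the RNAs on either side. The RNAs read from the plus-strand genes include both rRNAs and nearly all mRNAs, whereas the other transcript yields mainly tRNAs and the mRNA of the respiratory-chain subunit mt-Nd6. The tRNAs serve only the ribosomes inside the mitochondrion, which make core subunits of the respiratory chain and the ATP synthase.

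The sequences of 9 tRNA genes carry the comparisons that follow, namely the 7 whose level differed between the diets at an unadjusted p no higher than 0.05, together with the most and the least abundant tRNA of each strand. They are given 5′ to 3′ on the coding strand with the anticodon in capitals, from the mouse assembly NCBIM37 (mm9). On the plus strand, mt-Tf (phenylalanine, chrM:1-68), mt-Tv (valine, chrM:1025-1093), mt-Ti (isoleucine, chrM:3706-3774), mt-Tm (methionine, chrM:3845-3913), mt-Tw (tryptophan, chrM:4950-5016) and mt-Tt (threonine, chrM:15289-15355) read as follows.
mt-Tf: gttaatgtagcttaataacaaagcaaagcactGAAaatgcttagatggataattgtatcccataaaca
mt-Tv: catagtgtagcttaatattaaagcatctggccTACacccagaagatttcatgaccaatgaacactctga
mt-Ti: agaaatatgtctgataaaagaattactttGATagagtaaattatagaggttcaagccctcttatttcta
mt-Tm: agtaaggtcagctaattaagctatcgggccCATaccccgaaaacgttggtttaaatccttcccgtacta
mt-Tw: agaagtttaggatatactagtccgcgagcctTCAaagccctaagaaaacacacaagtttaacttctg
mt-Tt: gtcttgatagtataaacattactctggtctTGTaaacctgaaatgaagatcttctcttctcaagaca

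On the minus strand, mt-Ta (alanine, chrM:5018-5086), mt-Tn (asparagine, chrM:5089-5159) and mt-Ty (tyrosine, chrM:5260-5326) read as follows.
mt-Ta: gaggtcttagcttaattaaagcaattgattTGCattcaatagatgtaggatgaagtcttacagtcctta
mt-Tn: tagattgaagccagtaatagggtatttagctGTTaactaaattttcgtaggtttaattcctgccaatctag
mt-Ty: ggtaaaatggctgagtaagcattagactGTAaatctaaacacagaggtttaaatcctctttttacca

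The reads were trimmed at the adaptor or at 31 bases, so a count cannot tell a fragment of a tRNA from the start of a longer one. The genes of mt-Tw, mt-Ta, mt-Tn, mt-Tc (cysteine) and mt-Ty lie next to each other, mt-Tw on the plus strand and the other 4 on the minus strand. The genes of mt-Ti and mt-Tq (glutamine) overlap by 3 bases on opposite strands, and those of mt-Ts2 (serine) and mt-Tl2 (leucine) overlap by 1 base on the plus strand. The gene of mt-Tf lies before that of the small rRNA, mt-Tv lies between the rRNA genes, and mt-Tl1, the other leucine tRNA, follows the large rRNA.

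Levels differed widely among the 21 tRNAs, and all 21 passed the filter on low counts. A level per kilobase of gene was used to compare tRNAs with each other. mt-Tm, which carries methionine for both start and inner codons in mitochondria, had the highest level, 3136 CPM per kilobase averaged over the 8 mice, and took 35.8% ± 5.32 (SD, n = 4) of the mitochondrial tRNA counts under SD, against 29.8% ± 3.38 (SD, n = 4) under WD. mt-Tl1 at 1735 and mt-Tv at 1650 CPM per kilobase came next, and their ranges over the mice overlapped, so their order is not set. Below them were mt-Ts2 at 655.1, mt-Tf at 362.6, mt-Th (histidine) at 323 and mt-Tw at 249.6 CPM per kilobase. The leading 7 tRNAs were all encoded on the plus strand.

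The other 14 tRNAs were within a narrower span, from mt-Ty at 143.7 to mt-Ta at 44.52 CPM per kilobase. Neighbours in the order that follows overlapped in their ranges over the mice, so that order is not set. In descending order of level per kilobase they were mt-Ty, mt-Tg (glycine, 133.3), mt-Tt (113.2), mt-Tq (105.4), mt-Tk (lysine, 104.1), mt-Tp (proline, 97.64), mt-Tr (arginine, 94.21), mt-Tl2 (83.34), mt-Ts1 (the other serine tRNA, 75.64), mt-Tc (75.16), mt-Ti (74.33), mt-Te (glutamate, 58.64), mt-Tn (55.77) and mt-Ta. The median level was 249.6 CPM per kilobase over the 13 plus-strand tRNAs and 75.4 over the 8 minus-strand tRNAs. The plus-strand levels reached down to 74.33 CPM per kilobase, so the strands overlapped. Ligation and amplification were not calibrated for single tRNAs, and levels between tRNAs carry those differences.

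**Figure D1:**
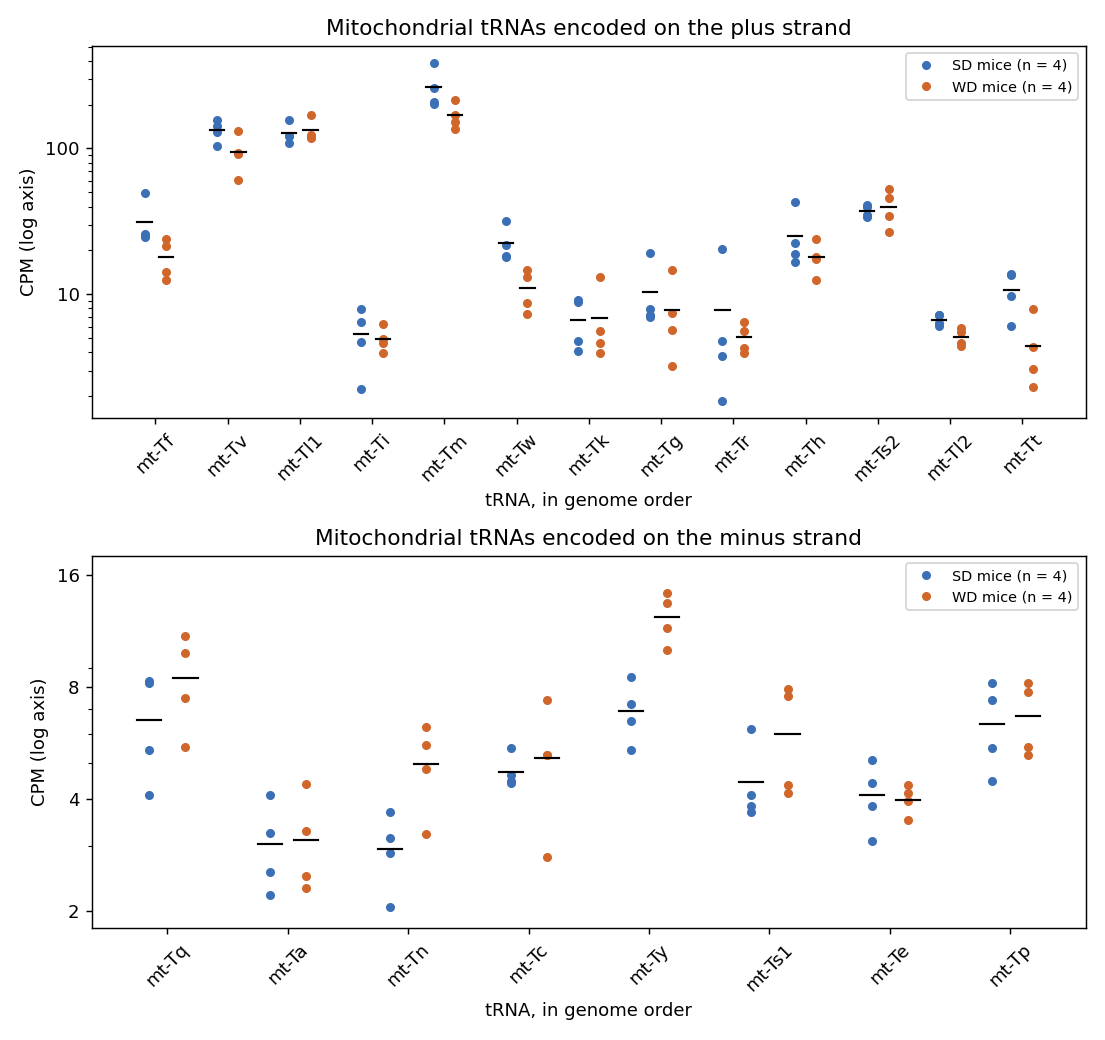
CPM of each mitochondrial tRNA (log axis) in each of 4 SD mice (blue) and 4 WD mice (orange), in genome order, with plus-strand tRNAs above and minus-strand tRNAs below and a line at each group's mean. mt-Tm, mt-Tl1 and mt-Tv stand above the other tRNAs in every mouse, and the 4 WD mice lie above the 4 SD mice at mt-Ty and below them at mt-Tf, mt-Tw and mt-Tl2.

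The nuclear genome holds copies of stretches of mitochondrial DNA, and how the authors counted reads that match several places is not given in the sources used here. Every 31-base window of each gene was therefore searched for in the nuclear chromosomes of NCBIM37. No window of mt-Tf, mt-Tv, mt-Tl1, mt-Ti, mt-Tm, mt-Ts2 or mt-Tp had an exact nuclear match. Within 2 mismatches, which the authors' alignment allowed, 64.1% of the windows of mt-Ti, 55.6% of mt-Tl1, 51.4% of mt-Tp, 17.9% of mt-Tm, 6.9% of mt-Ts2 and 2.6% of mt-Tf did match, and none of mt-Tv. An exact match was found for every window of mt-Tw, mt-Tn, mt-Ty, mt-Ts1, mt-Tk, mt-Tg, mt-Th and mt-Te. Between them were mt-Tl2 with 9.8% of its windows matched, mt-Tq with 26.8%, mt-Tt with 37.8%, mt-Ta with 53.8%, mt-Tc with 63.9% and mt-Tr with 65.8%.

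With shorter windows of 25 bases, as reads cut at the adaptor can be shorter than 31, only mt-Tf, mt-Tv and mt-Tp had no exact match, while 3.9% of the windows of mt-Tl1, 8.9% of mt-Tm, 11.1% of mt-Ti and 17.1% of mt-Ts2 had one.

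The 7 tRNAs with no exact nuclear window of 31 bases had a median level of 655.1 CPM per kilobase, the 8 with every window matched 118.7, and the 6 between them 88.77. Level and matched share had a Spearman rho of -0.38 over the 21 tRNAs, which share their libraries and lie on 1 genome. Of the plus-strand tRNAs 6 of 13 had no exact window, and of the minus-strand tRNAs 1 of 8, mt-Tp. The matched share and the strand thus ran together, and the part of nuclear copies in the levels was not tested.

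**Figure D2:**
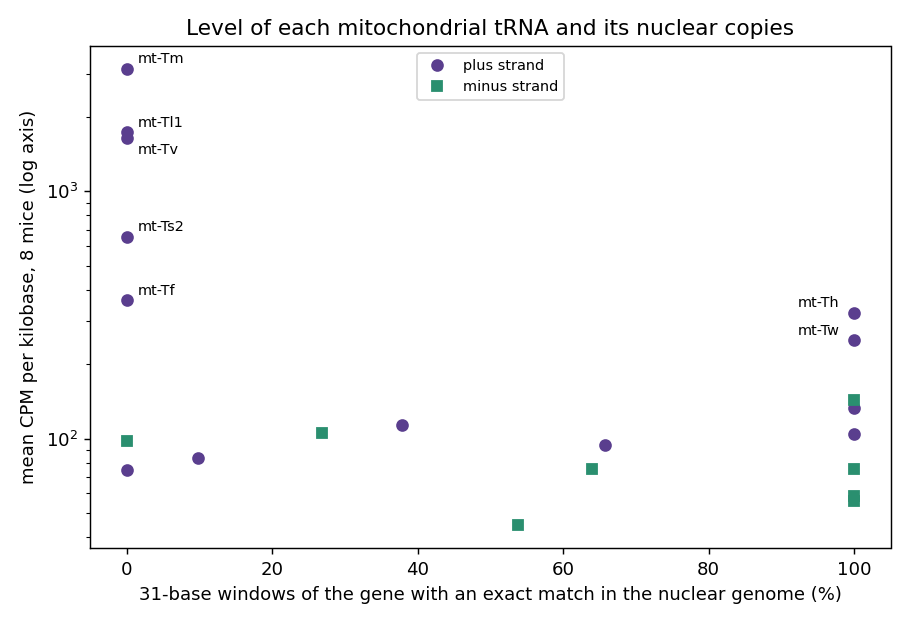
Mean CPM per kilobase over 8 mice (log axis) of each of 21 mitochondrial tRNAs against the percent of its 31-base windows with an exact match in the nuclear genome, with circles for the plus and squares for the minus strand. The 5 highest tRNAs, from mt-Tm at 3136 to mt-Tf at 362.6, have no exact window of 31 bases. With 25 bases only mt-Tf and mt-Tv of these have none.

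The comparison of the diets asked which mitochondrial tRNAs differ in the testes of WD mice. No tRNA passed after Benjamini-Hochberg adjustment over the 16955 small RNAs tested with edgeR's quasi-likelihood test, the smallest adjusted p being 0.318, the same as over all small RNAs. DESeq2 and limma-voom also gave 0 tRNAs with an adjusted p under 0.05, at a smallest adjusted p of 0.282 and 0.317. At an unadjusted p of 0.05 or less they called 6 and 7. The share of all small RNAs that each of them called is not given here, so these counts cannot be set against it. With edgeR, at an unadjusted p of 0.05 or less 7 of the 21 (33.3%) were called, against 14.6% of all small RNAs tested. Lower in WD mice were 5 of 21, against 7.83% of all small RNAs, namely mt-Tf, mt-Tv, mt-Tm, mt-Tw and mt-Tt. Higher in WD mice were 2 of 21, mt-Tn and mt-Ty, against 6.76% of all. The 5 lower ones were encoded on the plus strand and the 2 higher ones on the minus strand.

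mt-Tw, the tryptophan tRNA, had 31.87, 18.17, 17.96 and 21.77 CPM in the SD mice M1N, M2N, TN1 and TN2, and 14.79, 13.16, 7.372 and 8.71 CPM in the WD mice M1W, M2W, M3W and M5W. Every WD mouse lay below every SD mouse. The mean was 22.4 ± 6.53 CPM in SD and 11.01 ± 3.53 CPM in WD mice (SD, n = 4 each), a log2 fold change of -1.02 (SE 0.27) and an adjusted p of 0.318 by edgeR's quasi-likelihood test. mt-Tw was at p of 0.05 or less under all 20 alternatives computed for it. All of its 31-base windows have an exact nuclear copy.

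mt-Tt, the threonine tRNA, had 13.71, 6.058, 13.55 and 9.727 CPM in SD mice and 7.889, 3.07, 2.304 and 4.355 CPM in WD mice. M2N lay below M1W, so the diets overlapped. Its log2 fold change, -1.23 (SE 0.37), was the most negative of the 21, and it was called before adjustment (adjusted p = 0.318). Its counts were low, from 5 to 43 per mouse. The call was lost when only M1N, M2N, M1W and M2W were compared, at -0.85 with the number in the name as a block and -0.78 without.

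mt-Tf, the phenylalanine tRNA and the leading gene of the genome's numbering, had 49.35, 24.55, 25.2 and 25.94 CPM in SD mice and 21.37, 24.12, 14.28 and 12.44 CPM in WD mice. Every WD mouse lay below every SD mouse, M2W only just, and M1N stood far above the other SD mice. The log2 fold change was -0.80 (SE 0.28) (adjusted p = 0.318). Without M1N it was -0.49 and no longer called.

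mt-Tm, the most abundant, had 386.6, 258, 209.8 and 201.9 CPM in SD mice and 170.9, 215.8, 151.6 and 136.6 CPM in WD mice. M2W lay above TN1 and TN2. The means were 264 ± 85.4 and 169 ± 34.4 CPM (SD, n = 4 each), with a log2 fold change of -0.65 (SE 0.22) and an adjusted p of 0.318. Leaving out M1N gave -0.41, which was still called.

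mt-Tv, the valine tRNA, had 129.9, 104.6, 157.2 and 142.2 CPM in SD mice and 131.8, 93.41, 60.36 and 91.45 CPM in WD mice. M1W lay within the SD mice. The log2 fold change was -0.50 (SE 0.21) (adjusted p = 0.326). It lost its call when any of TN1, TN2, M2W, M3W or M5W was left out, at -0.70 to -0.34 over the 8 single omissions, and with libraries scaled to their column totals alone. Between M1N, M2N, M1W and M2W alone the value was -0.05.

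mt-Ty, the tyrosine tRNA, had 7.197, 5.42, 8.505 and 6.484 CPM in SD mice and 13.48, 10.09, 11.52 and 14.31 CPM in WD mice. Every WD mouse lay above every SD mouse. The mean was 6.90 ± 1.29 CPM in SD and 12.4 ± 1.91 CPM in WD mice (SD, n = 4 each), a log2 fold change of 0.84 (SE 0.24) (adjusted p = 0.318). mt-Ty was at p of 0.05 or less under all 20 alternatives computed for it. All of its windows have an exact nuclear copy.

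mt-Tn, the asparagine tRNA, had 2.056, 2.87, 3.15 and 3.705 CPM in SD mice and 6.246, 4.824, 3.225 and 5.599 CPM in WD mice. M3W lay within the SD mice. The log2 fold change was 0.79 (SE 0.33) (adjusted p = 0.326), on 6 to 19 counts per mouse. The call was lost without M1N, M2N, M1W or M5W, and with DESeq2 on all 8 mice. Like mt-Ty, mt-Tn has a nuclear copy of every window.

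The other tRNAs on the plus strand were not called. mt-Tl2 had 7.197, 6.377, 7.245 and 6.021 CPM in SD mice and 5.917, 4.385, 5.529 and 4.666 CPM in WD mice. These levels did not overlap, but the log2 fold change of -0.39 (SE 0.26), on 10 to 23 counts per mouse, was not called (adjusted p = 0.470). mt-Tl1, the second most abundant, had 156.6, 121.8, 121 and 109.8 CPM in SD mice and 120, 170.1, 123.5 and 118.5 CPM in WD mice, with a log2 fold change of 0.06 (SE 0.18). Its diets overlapped. mt-Ts2, between 26.72 and 52.92 CPM, had a log2 fold change of 0.10 (SE 0.21) and mt-Tk, between 3.947 and 13.15 CPM, one of 0.08 (SE 0.39).

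The remaining plus-strand tRNAs had negative values and were not called. mt-Th, between 12.44 and 43.18 CPM, had a log2 fold change of -0.48 (SE 0.29), and mt-Ti, between 2.232 and 7.882 CPM, one of -0.07 (SE 0.36). mt-Tg, between 3.225 and 19.19 CPM, had -0.37 (SE 0.42), and mt-Tr, between 1.853 and 20.56 CPM, had -0.64 (SE 0.55). The highest mouse for mt-Th, mt-Tg, mt-Tr and mt-Ti was M1N, and without it the log2 fold changes were -0.09, 0.12, 0.48 and 0.21.

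The other minus-strand tRNAs were not called. mt-Tq, between 4.113 and 10.96 CPM, had a log2 fold change of 0.39 (SE 0.31) and mt-Ts1, between 3.705 and 7.893 CPM, one of 0.42 (SE 0.33). mt-Tc, between 2.8 and 7.372 CPM, had 0.09 (SE 0.33), and mt-Tp, between 4.464 and 8.218 CPM, had 0.10 (SE 0.29). The least abundant were mt-Ta, with 4.113, 2.551, 2.205 and 3.242 CPM in SD mice and 3.287, 4.385, 2.304 and 2.489 CPM in WD mice, and mt-Te, with 3.084, 3.826, 4.41 and 5.095 CPM in SD mice and 3.945, 3.508, 4.147 and 4.355 CPM in WD mice. Their diets overlapped, with log2 fold changes of 0.04 (SE 0.37) and -0.02 (SE 0.31). At the floor of 3 counts, 0.933 to 1.39 CPM depending on the mouse, all 21 tRNAs could be seen in every mouse. This floor covers counting error only.

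By strand, 10 of 13 plus-strand tRNAs had a negative log2 fold change, with a median of -0.48 and a range from -1.23 to 0.10, and 7 of 8 minus-strand tRNAs a positive one, with a median of 0.25 and a range from -0.02 to 0.84. Over all small RNAs tested the median was -0.01 and 50.6% were negative. The diets did not overlap at 3 of the 21 tRNAs that were lower in WD mice, mt-Tf, mt-Tw and mt-Tl2, against 2.68% of all small RNAs, and at 1 that was higher, mt-Ty, against 3.01%. In the block of adjoining genes from mt-Tw to mt-Ty, mt-Tw on the plus strand was at -1.02. On the minus strand mt-Ta was at 0.04, mt-Tn at 0.79, mt-Tc at 0.09 and mt-Ty at 0.84. Of the block mt-Tw, mt-Tn and mt-Ty were called, and mt-Ta and mt-Tc were not. Without M1N the median of the plus strand was -0.09. With each mouse left out in turn the median of the minus strand was between 0.17 and 0.39, the latter without M5W.

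**Figure D3:**
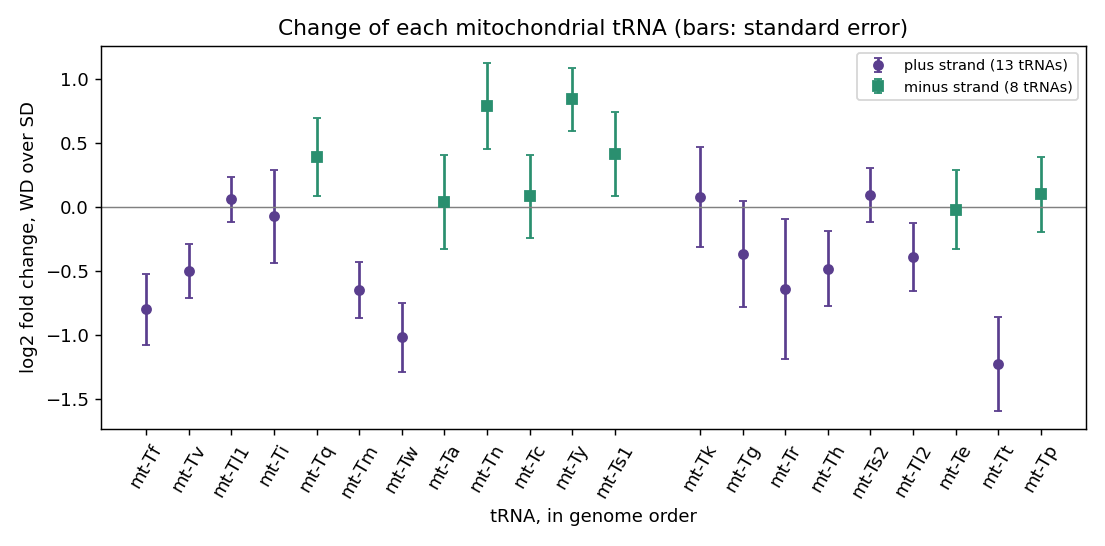
Log2 fold change (WD over SD, n = 4 mice each) of each mitochondrial tRNA in genome order, with bars of 1 standard error, circles for the 13 plus-strand and squares for the 8 minus-strand tRNAs. Plus-strand values run from -1.23 at mt-Tt to 0.10 at mt-Ts2, and minus-strand values from -0.02 at mt-Te to 0.84 at mt-Ty.

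Base composition and position had weak relations with the change. Over the 21 tRNAs the log2 fold change had a Spearman rho of 0.17 with GC content, 0.08 with genome order, 0.21 with the share of windows copied in the nuclear genome and -0.37 with the mean CPM. The called tRNAs were spread over the classes of nuclear copy, with 3 that have no exact window (mt-Tf, mt-Tv and mt-Tm), 3 with every window matched (mt-Tw, mt-Tn and mt-Ty) and 1 between (mt-Tt).

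The summed level of the plus-strand tRNAs was 911.3, 610.6, 633.2 and 600.3 CPM in SD mice and 586.8, 604.7, 423 and 453.8 CPM in WD mice. M2W lay above TN2, and M1N stood far above every other mouse. The means were 689 ± 149 and 517 ± 92.0 CPM (SD, n = 4 each), a ratio of 0.751, or 0.841 without M1N. mt-Tm was the largest single term, and without it the ratio was 0.820.

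The minus-strand sum was 37.7, 32.84, 43.16 and 42.61 CPM in SD mice and 57.86, 52.18, 43.77 and 49.15 CPM in WD mice. The WD mice lay above the SD mice, but M3W was close to TN1, and with column totals as the scale the diets overlapped, at up to 44.56 in SD and from 43.99 in WD mice. The means were 39.1 ± 4.83 and 50.7 ± 5.88 CPM (SD, n = 4 each), a ratio of 1.30. No test was run on the sums.

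The share of the minus strand in the mitochondrial tRNA counts does not depend on the scale of a library. It was 3.97% in M1N (95% exact binomial interval 3.28 to 4.77), 5.10% in M2N (4.19 to 6.16), 6.38% in TN1 (5.38 to 7.50) and 6.63% in TN2 (5.38 to 8.07). In WD mice it was 8.98% in M1W (7.75 to 10.3), 7.94% in M2W (6.63 to 9.43), 9.38% in M3W (7.65 to 11.3) and 9.77% in M5W (8.37 to 11.3). Every WD mouse lay above every SD mouse, although the counting interval of TN2 overlapped those of M1W, M2W and M3W, and the interval of TN1 that of M2W. The group means were 5.52% ± 1.23 and 9.02% ± 0.786 (SD, n = 4 each), and the plus-strand count was 17.9 ± 4.65 times the minus-strand count in SD and 10.2 ± 1.03 times in WD mice. The intervals rest on 92 to 176 minus-strand counts of 1013 to 2769 in all per mouse. Among the 7 tRNAs with no exact nuclear window the minus strand is represented by mt-Tp alone, whose share was 1.09% ± 0.389 in SD and 1.47% ± 0.405 in WD mice (SD, n = 4 each). The diets overlapped there, and the ratio of the means was 1.35, against 1.63 over all 21 tRNAs.

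**Figure D4:**
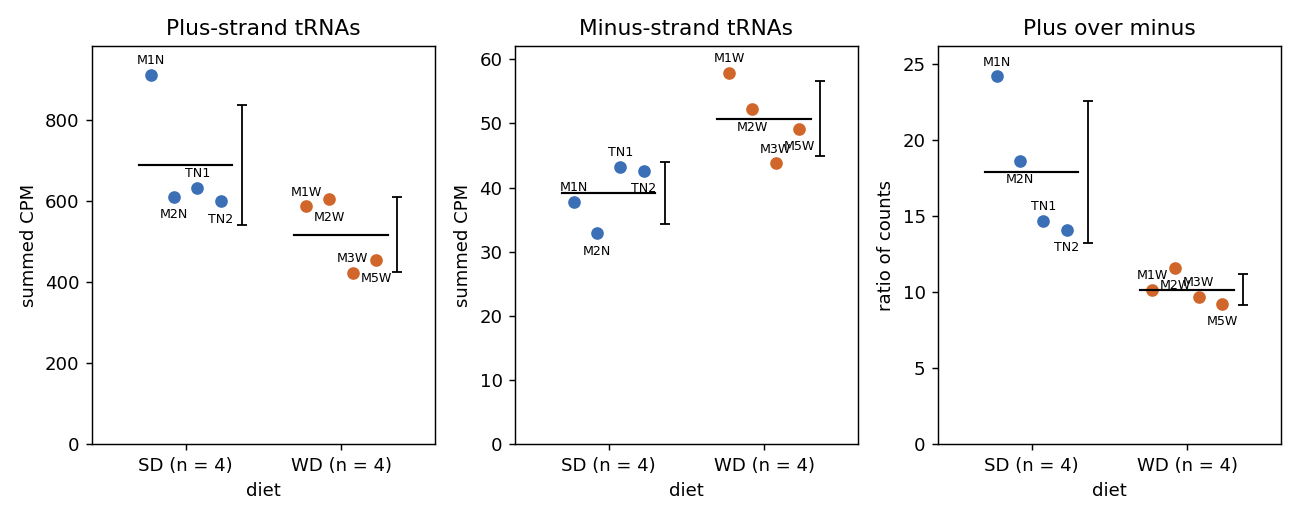
Summed CPM of the 13 plus-strand tRNAs (left), summed CPM of the 8 minus-strand tRNAs (middle) and the ratio of their counts (right) in each of 4 SD and 4 WD mice, with a line at the mean and a bar of 1 SD on each side. M1N lies far above the other mice on the left, and on the right the WD ratios, 9.23 to 11.6, lie below the SD ratios, 14.1 to 24.2.

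M1N also had the highest summed level of nuclear tRNAs. The entries of the class tRNA summed to 9072 CPM in M1N, 5108 to 7026 in the other SD mice and 4638 to 7504 in WD mice, and those of the class mmu-ucsc-tRNA to 16410, 9968 to 12170 and 8897 to 14470 CPM. M1N was the highest SD mouse for 10 of 13 plus-strand and 3 of 8 minus-strand mitochondrial tRNAs, for 61.8% of the 89 nuclear tRNAs of the first class that were tested, and for 33.6% of all small RNAs tested. The ratio of WD to SD was 0.878 for the former nuclear sum and 0.896 for the latter, against 0.780 for the mitochondrial tRNAs. The minus-strand sum of M1N lay below those of TN1 and TN2. Values without M1N are given above for the plus-strand sum, the plus-strand median, mt-Tf, mt-Tm, mt-Th, mt-Tg, mt-Tr and mt-Ti.

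Among nuclear tRNAs of the class tRNA 12 of 89 were called, 10 lower and 2 higher in WD mice, with a median log2 fold change of -0.16. Of the class mmu-ucsc-tRNA 6 of 139 were called, all lower, with a median of -0.18. The shares called, 13.5% and 4.32%, were at or below the 14.6% over all small RNAs. The difference between these classes and the mitochondrial tRNAs was not tested.

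The names of the SD mice begin with M or TN, and the WD names begin with M. Against M1N and M2N alone 9 of 21 tRNAs were called, 6 lower and 3 higher, where 35.5% of all small RNAs were called. Against TN1 and TN2 alone 4 of the 20 tRNAs tested were called, 3 lower and 1 higher, where 3.79% of all were. The levels did not overlap for 7 of the 21 tRNAs against the M pair, where they did not for 42% of all small RNAs, and for 9 against the TN pair, where they did not for 12.3%. These comparisons share the 4 WD mice. mt-Tw (-1.17 against the M pair, -0.83 against the TN pair), mt-Tt (-1.09 and -1.35) and mt-Ty (0.98 and 0.71) were called against both, as were 1.66% of all small RNAs in the same direction.

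Other called tRNAs depended on the pair. mt-Tm was called against the M pair, at -0.93, and not against the TN pair, at -0.29, and so was mt-Tf, at -1.03 and -0.51. mt-Tv was called against the TN pair, at -0.66, and not against the M pair, at -0.31, and mt-Tn against the M pair, at 1.02, and not against the TN pair, at 0.58. mt-Tr turned from -1.31 against the M pair to 0.76 against the TN pair. By strand, 10 of 13 plus-strand tRNAs were negative against the M pair and 9 of 13 against the TN pair, and 7 of 8 and 5 of 7 minus-strand tRNAs were positive. What the first letters of a mouse's name stand for is not given.

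Marker miRNAs of other cell types in the testis were present in both diets. The summed level was 3609 to 4193 CPM in SD and 4187 to 7021 CPM in WD mice for 2 gonadal somatic miRNAs, 4381 to 6379 and 4480 to 8359 CPM for 4 vessel and smooth muscle miRNAs, 38.26 to 148.4 and 74.62 to 132 CPM for the 2 blood miRNAs listed of 3, and 36.67 to 46.32 and 26.72 to 51.75 CPM for 2 striated muscle miRNAs. None of these was called. Of the 6 germ cell miRNAs 3 were, miR-34b-3p, miR-34c-3p and miR-449a-5p, all lower in WD mice at an unadjusted p, where 7.83% of all small RNAs were lower. Their log2 fold changes were -0.45, -0.50 and -0.62, and the other germ cell miRNAs were not called. The part of the cell mixture in the tRNA differences was not tested.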

How the data were processed

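Small RNA libraries of 8 testes were read on a SOLiD sequencer. Reads were cut at the adaptor or after 31 bases and placed on mm9 with Bowtie at up to 2 mismatches, and the authors deposited raw counts per small RNA and mouse, which were neither pooled nor normalised. The submitters' notes also name DESeq. Versions, and how reads with several matches were counted, are not given in the sources used here.

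The deposited counts of the whole table were tested with edgeR 4.0.16 (R 4.3.3): column totals as library size, TMM factors, filterByExpr (minimum count 10, minimum total 15) and the two-sided quasi-likelihood test with diet as the only term, with Benjamini-Hochberg adjustment over 16955 small RNAs. Standard errors were derived from the F statistic. The fit was tested on simulated data. CPM are TMM-scaled. The adjusted p was above 0.05 for every small RNA, so called means an unadjusted p of 0.05 or less.

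Sums and shares of a strand have no test. Every pair of the 8 libraries, 28 in all, differed by more than sampling noise (chi-square per degree of freedom 2.42 to 22.3). Genes, strands and sequences are from NCBIM37 with GENCODE M1. Windows of 31 bases, the longest read kept, were used in place of the 25 bases planned. With 25 bases, 3 tRNAs in place of 7 had no exact nuclear match and 8, as before, had all. Correlations over tRNAs are descriptions. Figures were drawn with matplotlib 3.10.9.

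All 21 tRNAs are named. Values per mouse are given for those at p of 0.05 or less or with diets that do not overlap and for the 3 most and 3 least abundant by mean CPM. The tRNAs, the lists and the tests were chosen with earlier results of these data known. No mitochondrial rRNA class was analysed here. Of the marker miRNAs, miR-451a and miR-1-3p were taken under the older or alternative names miR-451 and miR-1a-3p. The number 1 is in the names M1N and M1W, and 2 in M2N and M2W, which are different animals. Alternatives were DESeq2 1.42.0, limma-voom (limma 3.58.1), other scalings and filters, each pair of SD mice alone, the number as a block, each mouse left out, and other thresholds.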

Additional observations from a re-analysis of the deposited data

Results flagged for a closer look

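In 6 of 46 sets of 4 mice of 1 diet, a single mouse stood apart by Dixon's criterion for 4 values, which sets the gap to the nearest mouse against the whole range. Chance alone picks out about 1 set in 20. In 5 of them the mouse was M1N among the SD mice. mt-Tf was at 49.35 CPM in M1N against 24.55 to 25.94 in the other SD mice, mt-Ts1 at 6.169 against 3.705 to 4.095, mt-Tg at 19.19 against 6.948 to 7.971 and mt-Tr at 20.56 against 1.853 to 4.783 CPM. The plus-strand sum was 911.3 CPM in M1N against 600.3 to 633.2. Among the WD mice mt-Tl1 was at 170.1 CPM in M2W against 118.5 to 123.5 CPM in the others. The tRNAs share their library, so the values from M1N are not independent of each other.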

How the results depend on the processing

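Of the 7 called tRNAs, mt-Tw and mt-Ty were at p of 0.05 or less under all 20 alternatives computed for each, mt-Tm under 19 of 20, mt-Tf 18 of 20, mt-Tt 17 of 19, mt-Tn 13 of 19 and mt-Tv 10 of 20, and all 7 kept their direction in every one. The cause of the changes that follow was not tested. The 7 calls became 4 against the TN pair, where 3.79% of all small RNAs were called, and 4 at a threshold of 0.01. The 5 lower ones became 3 and 3. The shares of all small RNAs called at 0.01, and with a mouse left out, are not given here, so those counts have no background. The 2 higher ones became 1 with DESeq2, against the TN pair and at 0.01, and 1 to 2 when a mouse was left out. With at least 10 counts in every mouse, mt-Tn, on 6 to 19 counts, was removed before the fit, and mt-Ty was still called. The 4 tRNAs with diets that do not overlap became 7 against the M pair and 9 against the TN pair, where 42% and 12.3% of all small RNAs do not overlap. The minus-strand median of 0.25 over 8 tRNAs became 0.51 with TMM within the class, where mt-Ta was not tested and mt-Tq is the middle value. For the 4 mice M1N, M2N, M1W and M2W it was 0.53 with the number as a replicate block and 0.55 without it. What the numbers stand for is not given. Deviations of same-numbered mice had a correlation of -0.057 over all small RNAs. It rests on a single difference between mice per diet and cannot tell whether same-numbered mice share anything. With and without the block 7 tRNAs were called, where 22.6% and 24.1% of all small RNAs were. Both fits lost mt-Tv, at -0.0665 and -0.0511, and mt-Tt, and added mt-Tq and mt-Tr. The plus-strand median of -0.48 ranged from -0.65 to -0.088 with a mouse left out, and was -0.29 against the TN pair, -0.71 against the M pair and -0.30 with TMM within the class. With at least 10 counts in every mouse only mt-Tq, mt-Ty and mt-Tp remained of the minus strand, and their median of 0.41 is the value of mt-Tq. The minus-strand ratio of 1.30 became 1.44 against the M pair and 1.18 against the TN pair. Against the TN pair the minus-strand median was 0.15 over the 7 tRNAs tested, without mt-Ta. The difference in minus-strand share of 3.50 points became 0.381 for the tRNAs with no exact nuclear window. There mt-Tp is the only minus-strand tRNA left and the share itself is 1.09% in SD mice. As a ratio of the diets the share went from 1.63 to 1.35. Column totals and limma-voom moved the share of all calls that were higher from 46.3% to 56.1% and 56.5%.

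Changes of sign touched only uncalled tRNAs. In log2 fold change, limma-voom gave 0.0719 for mt-Ti and 0.0056 for mt-Te, column totals 0.036 for mt-Te, and TMM within the class 0.10 for mt-Ti and 0.11 for mt-Te. The M pair gave -0.0665 for mt-Tl1, 0.0025 for mt-Ti, -0.10 for mt-Ta and 0.21 for mt-Te, and the TN pair -0.34 for mt-Tk, 0.19 for mt-Tg, 0.76 for mt-Tr and -0.20 for mt-Tp. mt-Te was at 0.12 with the replicate block and 0.11 without. With a mouse left out the range was -0.0749 to 0.18 for mt-Tl1, -0.34 to 0.21 for mt-Ti, -0.12 to 0.32 for mt-Tc, -0.47 to 0.29 for mt-Tk, -0.88 to 0.12 for mt-Tg, -0.92 to 0.48 for mt-Tr, -0.0734 to 0.24 for mt-Ts2, -0.13 to 0.0807 for mt-Te, -0.043 to 0.26 for mt-Tp and -0.14 to 0.16 for mt-Ta. The share of the minus strand with a mouse left out was an alternative chosen after seeing the data.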
